A study of Mus musculus with 6 samples.

Results

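The genes described here are the Wnt ligands, their receptors, the secreted proteins that modulate them, and the proteins that relay the signal to the nucleus. They were taken by name from the annotation of the arrays: symbols of the Wnt, Fzd, Sfrp, Dkk, Dvl and Axin families, and Frzb, Wif1, Lrp5, Lrp6, Ctnnb1, Lef1, Tcf7, Tcf7l1, Tcf7l2, Gsk3b, Apc, Csnk1a1 and Porcn. Of 10500 probes, 44 met this rule, each for a different gene, out of 8841 genes named on the arrays. Of the 44 genes 42 could be tested, and Tcf7 and Csnk1a1, for which no probe met the rule, were not analysed here. The samples were 3 cultures of 2T3 cells exposed to simulated microgravity on the Random Positioning Machine, and 3 kept as static controls, all grown in Opticells, with 1 array per sample. 2T3 is an immortalised line of mouse pre-osteoblasts, so all 6 samples come from 1 line. A Random Positioning Machine keeps turning the culture, so that gravity pulls on the cells from constantly changing directions. The sources used here give neither the length of exposure nor the origin of the replicates, so the p-values measure the scatter among these 6 samples alone, and that scatter may be technical.

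In the canonical Wnt pathway a secreted, lipid-modified Wnt protein binds a Frizzled receptor and an Lrp5 or Lrp6 co-receptor. Dishevelled then holds back a destruction complex of Axin, Apc and the kinases Gsk3b and Csnk1a1, and beta-catenin (Ctnnb1) accumulates and drives transcription with Lef1 and the Tcf factors. Secreted frizzled-related proteins and Wif1 bind Wnt proteins outside the cell, and several Dickkopf proteins bind the Lrp co-receptors. In bone the pathway favours osteoblast formation, and loss of LRP5 function in people leads to low bone mass.

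Of the 42 genes tested, 1 passed the threshold, the Wnt-binding protein gene Sfrp2, which was 2.44-fold lower in simulated microgravity, with a 95% interval of the ratio from 0.333 to 0.503. Over all 10146 probes tested 28 passed, which is 0.276% (0.187% lower and 0.0887% higher). No other member passed, and 4 of them, Dkk3, Fzd2 and Porcn with lower values and Dkk2 with higher values in simulated microgravity, had an unadjusted limma p under 0.05. With Sfrp2 these make 5 of 42 genes, or 11.9%, against 10.8% of all probes at that level, so this share lay near the background. The 4 lower genes were 9.52% of the 42, against 5.28% of all probes, and the 1 higher gene was 2.38%, against 5.56%. Groups did not overlap in 8 members, 6 lower and 2 higher (19.0% of the 42), against 15.7% of all probes. In the lower direction that is 14.3% of the members and 7.57% of the probes, and in the higher direction 4.76% and 8.11%. Wnt10b, counted among the 6, had values on only 2 arrays a group. The ligands, the destruction complex, beta-catenin and the Tcf/Lef factors had 0 members at an unadjusted p under 0.05. The threshold was a limma p under 0.05 after Benjamini-Hochberg adjustment over all probes. In RNA from a whole culture, fewer cells of a type and less RNA per cell cannot be told apart.

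Values below are intensities divided by the median of their array, so that 1 is the median probe, and log2 changes are simulated microgravity minus static. The deposited array medians lay within 2.07% of each other, and 6.44% to 19.8% of the values of an array lay at or under 0.1 of its median, the floor used here. The lowest of these shares were those of microgravity 2 (6.44%) and static 2 (9.16%). Of 14 osteoblast markers fixed as a check of the cells, 10 were on the array, and their levels fit the label in part. In static cells Postn, Col1a2, Col1a1, Bmp1, Pth1r and Alpl averaged 75.7, 47.5, 33.1, 8.28, 5.33 and 2.85. The same genes averaged 39.1, 20.5, 20.5, 5.57, 1.06 and 0.599 in simulated microgravity. Phex, Ibsp and Dmp1 were below the array median in both groups. Of 10 measured, 0 rose, 8 did not pass, and Pth1r and Alpl fell in simulated microgravity. The ratio was 0.198 for Pth1r, the parathyroid hormone receptor, and 0.211 for Alpl, the tissue-nonspecific alkaline phosphatase. At an unadjusted limma p under 0.05, 5 of the 10 were lower (50%, against 5.28% of all probes) and 0 were higher. The log2 change was negative for 9 of the 10. The summed level of the 10 was 207 to 260 on the simulated microgravity arrays and 313 to 450 on the static arrays. Much of this sum came from Sparc, which averaged 137 in simulated microgravity and 201 in static cells. Ibsp and Dmp1, markers of later osteoblasts and osteocytes, were dim in both groups. The 4 measured adipocyte markers summed to 35.4 to 40.9 in simulated microgravity and 42.5 to 50.1 in static cells, and none passed the threshold. Fabp4, a fatty acid binding protein gene, averaged 26.5 ± 1.57 in simulated microgravity and 26.1 ± 4.35 in static cells, and Pparg, the adipocyte transcription factor gene, 2.02 ± 0.0644 and 2.75 ± 0.628 (SD, n = 3 each). Lpl, the lipoprotein lipase gene, averaged 9.89 ± 1.56 in simulated microgravity and 16.9 ± 0.804 in static cells, with groups that did not overlap (log2 change -0.78, limma adjusted p = 0.109). Adipoq was close to the floor at 0.1002 ± 0.0461 in simulated microgravity and 0.110 ± 0.0409 in static cells. Markers of cartilage (4 measured), skeletal muscle (5), macrophages, osteoclasts and blood (6) and endothelium and epithelium (8) summed to at most 3.42 on any array, with 0 past the threshold and 0 at an unadjusted p under 0.05 by limma. The brightest by their mean in simulated microgravity were the osteoclast marker Calcr and the red cell marker Hba-a1, which averaged 1.21 and 1.15 in simulated microgravity, against 0.901 and 0.818 in static cells, with overlapping groups. The blood cell marker Ptprc and the endothelial marker Pecam1 averaged 0.0693 and 0.0937 in simulated microgravity, against 0.0509 and 0.0661 in static cells. The part of these marker levels in the results below was not tested.

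Secreted modulators held the members that differed the most between the groups. Sfrp2 binds Wnt proteins and can act on the pathway in either direction, depending on the cell. Sfrp2 had 4.66, 4.82 and 4.44 times the array median on microgravity 1, 2 and 3, against 10.8, 11.1 and 12.1 on static 1, 2 and 3. All 3 simulated microgravity arrays lay below all 3 static arrays, and the gap between the groups was wider than the range within either. The means were 4.64 ± 0.186 in simulated microgravity and 11.3 ± 0.707 in static cells (SD, n = 3 each), a log2 change of -1.29 (SE 0.12, limma adjusted p = 0.0295). The call was lost with any single array left out: microgravity 1, 2 or 3 or static 1, 2 or 3. The log2 change was then -1.33 to -1.24 and the limma adjusted p was 0.0953 to 0.201.

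**Figure D1:**
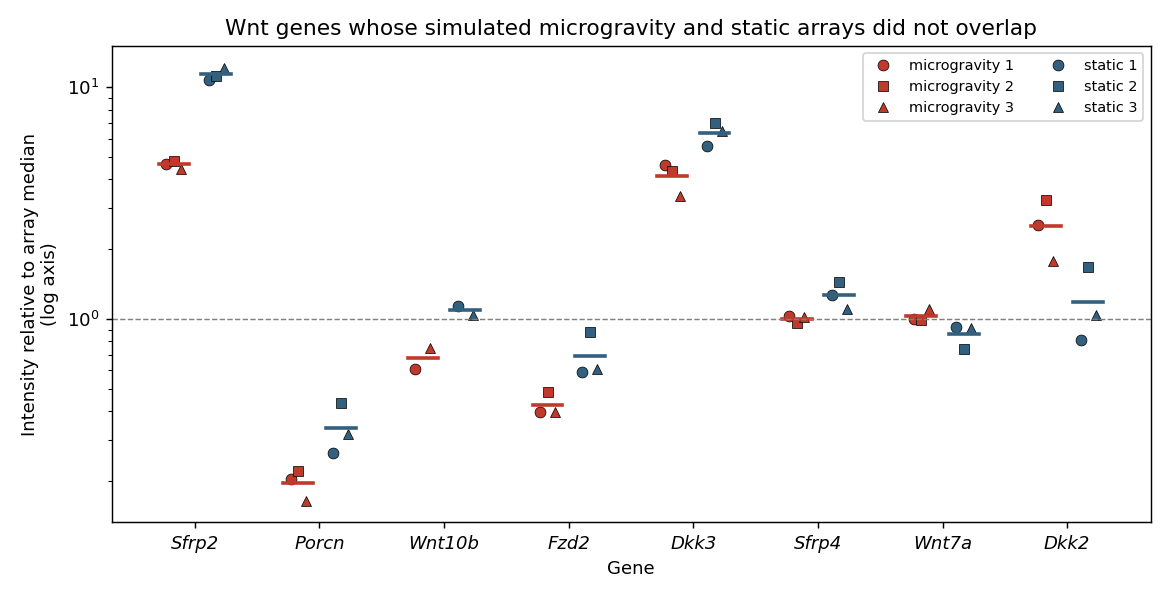
Intensity relative to the array median (log axis, dashed line at 1) of the 8 Wnt genes whose groups did not overlap, with 1 point per array, simulated microgravity in red left of static in blue, and a bar at each group mean. Sfrp2 shows the widest separation, at 4.44 to 4.82 in simulated microgravity and 10.8 to 12.1 in static cells, and Wnt10b has 2 arrays in each group because the entries of both arrays numbered 2 were empty.

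Dkk2, a Dickkopf protein that binds Lrp5 and Lrp6, had values of 2.53, 3.25 and 1.78 in simulated microgravity, against 0.810, 1.68 and 1.04 in static cells. The groups came close to each other, since the lowest simulated microgravity value (microgravity 3) lay just above the highest static value (static 2). Its means were 2.52 ± 0.735 and 1.18 ± 0.451 (SD, n = 3 each), a ratio of 2.18 with a 95% interval of 1.24 to 3.83 (log2 change 1.12, SE 0.34, limma adjusted p = 0.281). Dkk3, a divergent member of the Dickkopf family, ran the other way, with 4.62, 4.34 and 3.39 in simulated microgravity against 5.59, 6.97 and 6.44 in static cells. Its log2 change was -0.63 (SE 0.17, limma adjusted p = 0.228), with no overlap of the groups. Neither Dickkopf gene passed the threshold. Sfrp4, named after its values were seen, had 1.03, 0.958 and 1.02 in simulated microgravity against 1.27, 1.45 and 1.10 in static cells, a log2 change of -0.34 (SE 0.19, limma adjusted p = 0.675). Its groups did not overlap either, with nearest values of 1.03 on microgravity 1 and 1.10 on static 3.

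The other 5 secreted modulators showed no difference beyond the spread of the arrays or were too dim to measure. Frzb, a secreted frizzled-related protein of cartilage and bone, had 1.92, 1.69 and 2.49 in simulated microgravity against 2.70, 1.495 and 1.93 in static cells, so the groups overlapped. Dkk1, the best known Lrp-binding inhibitor, lay at or below the floor on 5 of 6 arrays and reached 0.115 on static 2. Wif1 had 0.0999 to 0.185 in simulated microgravity and 0.0902 to 0.153 in static cells. Sfrp5 was below the floor on all 6 arrays, at 0.0637 or less in simulated microgravity and 0.0724 or less in static cells, and was not tested. Sfrp1 was not tested because it had a value on 2 arrays only, 0.143 on microgravity 2 and 0.127 on static 2. Of the 7 modulators tested, 4 had lower and 3 had higher values in simulated microgravity.

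The 250 bases upstream of the RefSeq start sites of Sfrp2 and Dkk2 (mouse build GRCm38.p6) are given here because these were the modulators with the largest log2 change in each direction. The windows are chr3:83766071-83766320 for Sfrp2 and chr3:132085042-132085291 for Dkk2, both on the plus strand and 5′ to 3′, and capitals mark ATAAAA, the core letters of many TATA boxes, a motif chosen after the sequences were read.
Sfrp2: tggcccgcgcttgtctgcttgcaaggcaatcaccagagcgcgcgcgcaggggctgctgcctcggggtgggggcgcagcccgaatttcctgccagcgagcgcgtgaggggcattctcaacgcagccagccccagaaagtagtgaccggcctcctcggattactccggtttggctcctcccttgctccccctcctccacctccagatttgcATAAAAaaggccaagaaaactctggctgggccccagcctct
Dkk2: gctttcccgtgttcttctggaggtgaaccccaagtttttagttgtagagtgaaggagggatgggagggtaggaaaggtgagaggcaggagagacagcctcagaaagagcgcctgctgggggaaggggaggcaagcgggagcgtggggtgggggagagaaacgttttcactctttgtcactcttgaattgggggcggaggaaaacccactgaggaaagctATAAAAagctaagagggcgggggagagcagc

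The capitals lie 41 to 36 bases before the start of Sfrp2 and 31 to 26 bases before that of Dkk2. Searched on both strands in windows of 300 bases, 250 before and 50 after the start, ATAAAA stood in 18.5% of all 32851 RefSeq promoter windows. Among the 29 members with a promoter sequence, 8 held it (27.6%), in 21.6% of their 37 windows. The 8 include Sfrp2 and Dkk2, whose sequences were read before the motif was chosen, so neither share is independent of that choice. Only the 21.6% counts windows, as the 18.5% does. The Sfrp2 window holds 16 CG dinucleotides and 63.6% G and C, and the Dkk2 window 7 and 55.6%. Letters of the TCF/LEF motif (CTTTG and then a pair of letters that are each A or T, on either strand) were in neither window. They stood in the windows of 7 of the 29 members with a promoter sequence (24.1%), in 18.9% of these members' 37 windows, and in 16.9% of all windows. The members with the motif were Dkk1, Fzd7, Lef1, Tcf7l2, Wnt11, Wnt3 and Wnt5b, none of which had an unadjusted p under 0.05. A match describes letters in the window and is no sign that a factor binds there.

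Among the 13 Wnt ligands 0 passed the threshold, and log2 changes ran from -0.69 to 0.27, with 9 lower and 4 higher in simulated microgravity. Wnt10b, a ligand that favours osteoblast over adipocyte formation, had the most negative value. It read 0.609 and 0.749 on microgravity 1 and 3 against 1.14 and 1.04 on static 1 and 3, with both arrays numbered 2 empty. The fit therefore used 2 arrays a group for it (log2 change -0.69, SE 0.29, limma adjusted p = 0.505), and the groups did not overlap. Wnt7a, a ligand known from limb and nervous system patterning, had 0.997, 0.991 and 1.10 in simulated microgravity against 0.919, 0.744 and 0.909 in static cells, with a log2 change of 0.27 (SE 0.20, limma adjusted p = 0.825). These 2 of the 13 ligands had groups that did not overlap, with Wnt10b lower and Wnt7a higher in simulated microgravity. That share lay near the 15.7% of all probes. Groups of 2 arrays, as for Wnt10b, also separate more easily than groups of 3.

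Of the other ligands, Wnt11, Wnt1 and Wnt3 had group means above the array median, and their groups overlapped. Wnt11, a ligand of noncanonical signalling, had 3.34, 3.90 and 4.85 in simulated microgravity against 6.48, 5.28 and 2.69 in static cells. The 3 static arrays spanned the whole range of the simulated microgravity arrays, with static 1 the highest and static 3 the lowest. Wnt1, the founding member of the family, read 1.302 to 1.99 in simulated microgravity and 0.989 to 1.87 in static cells. Wnt3 read 1.49 to 1.90 in simulated microgravity and 1.49 to 1.91 in static cells, an almost complete overlap. Wnt10a, Wnt2b and Wnt5b lay below the median but above the floor on every array, with group means of 0.211, 0.355 and 0.287 in simulated microgravity and 0.274, 0.377 and 0.295 in static cells. Wnt2, Wnt3a, Wnt4, Wnt5a and Wnt7b were at or under the floor on at least 1 array. Their highest value was 0.211 in simulated microgravity and 0.192 in static cells, so a change in these ligands was not detectable at this signal. The table holds no detection calls, so whether such dim values are signal or background is unknown. The same holds for values near the array median, where the red cell marker Hba-a1 averaged 1.15 in simulated microgravity and 0.818 in static cells.

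Porcn encodes the acyltransferase that adds the lipid Wnt proteins need for secretion. It read 0.203, 0.220 and 0.164 in simulated microgravity against 0.263, 0.435 and 0.319 in static cells. Every simulated microgravity value lay below every static value, but all 6 were at 0.435 of the array median or less. The ratio was 0.586 (95% interval 0.388 to 0.884, log2 change -0.77, SE 0.25), and it did not pass the threshold (limma adjusted p = 0.317).

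Receptors were read at low intensity throughout. All 10, 8 Frizzled genes and both Lrp co-receptors, had group means below the array median in both groups, and 0 passed the threshold. Fzd2 had 0.395, 0.484 and 0.397 in simulated microgravity against 0.587, 0.875 and 0.607 in static cells. Its groups did not overlap, and its log2 change was -0.68 (SE 0.25, limma adjusted p = 0.382). Fzd1 averaged 0.518 ± 0.0954 in simulated microgravity and 0.688 ± 0.0881 in static cells, and Fzd8 averaged 0.512 ± 0.195 and 0.793 ± 0.303 (SD, n = 3 each). Their groups overlapped by 1 array, since microgravity 3 reached 0.626 for Fzd1 against 0.593 on static 2, and static 1 read 0.452 for Fzd8, below microgravity 1 and 2 at 0.660 and 0.586. Fzd7 averaged 0.849 ± 0.0973 in simulated microgravity and 0.705 ± 0.182 in static cells. Fzd4 had 0.588 and 0.702 in simulated microgravity, with microgravity 2 empty, against 0.778, 0.588 and 0.788 in static cells. Fzd3, Fzd6 and Fzd9 read at most 0.230 in simulated microgravity and 0.185 in static cells.

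The co-receptors, which bind both Wnt and Dickkopf proteins, showed no difference beyond the spread. Lrp5 had 0.311, 0.450 and 0.492 in simulated microgravity against 0.455, 0.343 and 0.427 in static cells (log2 change 0.02, 95% interval -0.61 to 0.64, limma adjusted p = 1.00). Lrp6 had 0.304, 0.443 and 0.273 against 0.315, 0.411 and 0.367 (log2 change -0.12, 95% interval -0.74 to 0.50, limma adjusted p = 0.950). The 95% interval of the ratio ran from 0.656 to 1.56 for Lrp5 and from 0.5997 to 1.41 for Lrp6.

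**Figure D2:**
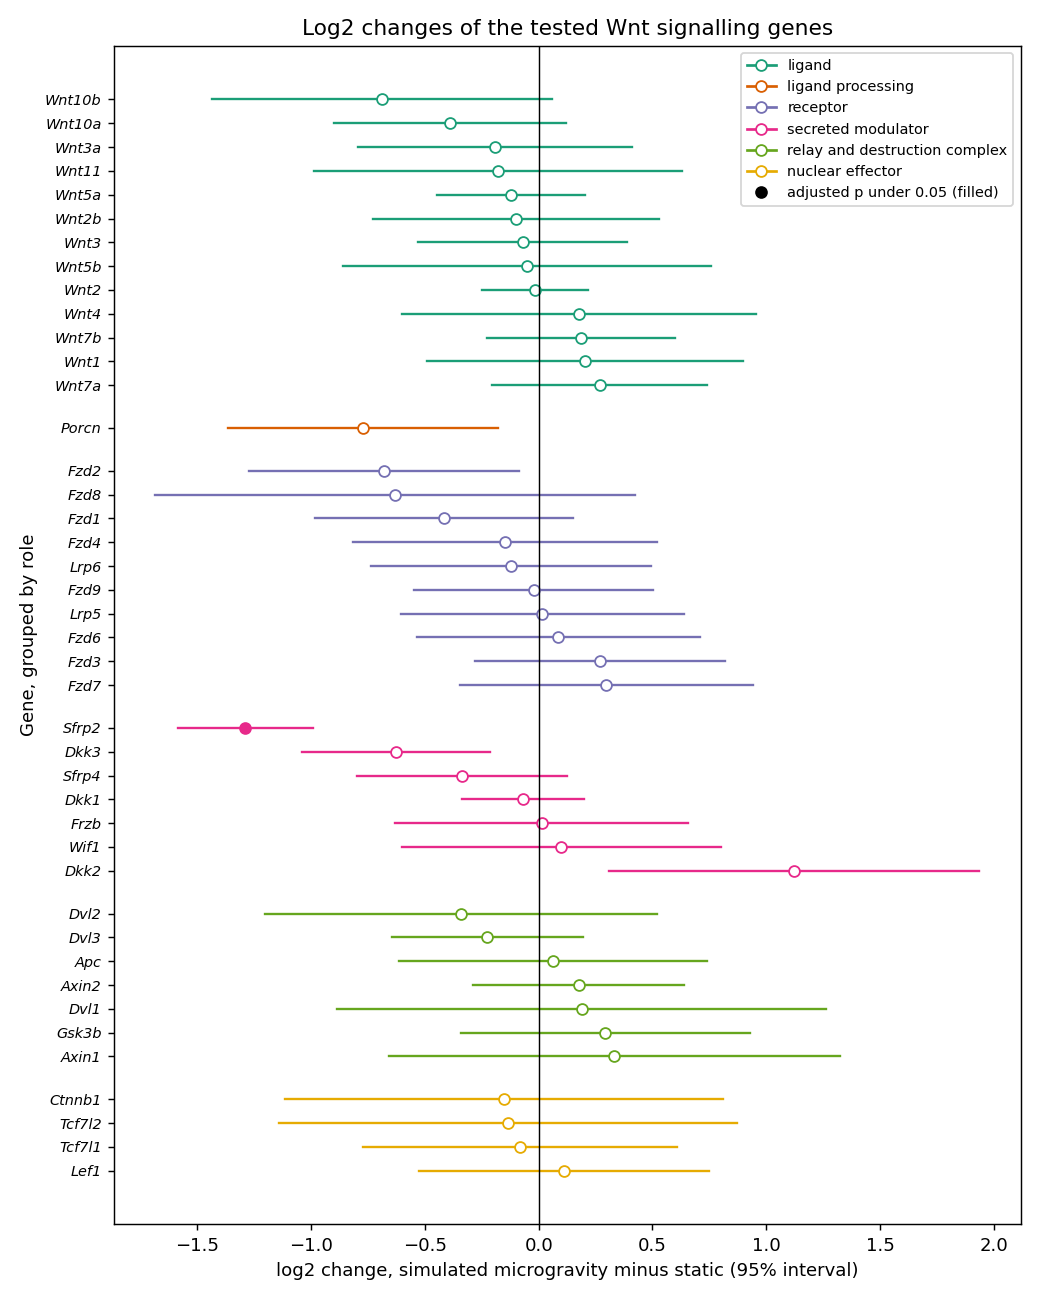
Log2 change (simulated microgravity minus static) with its 95% interval for the 42 tested genes, 1 row per gene, coloured by role, with filled points past the adjusted threshold. Sfrp2 at -1.29 is the filled point, and 37 of the 42 intervals include 0, while short intervals of dim genes such as Wnt2 come from values held at the floor.

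Beta-catenin (Ctnnb1), the effector of the canonical branch, had 14.6, 9.04 and 5.83 in simulated microgravity against 6.69, 10.7 and 14.8 in static cells. Each group covered nearly the same range, and the arrays within a group differed more than the groups did. The log2 change was -0.15 (SE 0.40, limma adjusted p = 0.969). The 95% interval of the ratio ran from 0.462 to 1.75, so a change in either direction within it remains possible with this spread and 3 arrays a group. Values were alike on microgravity 3 and static 1 (5.83 and 6.69), on both arrays numbered 2 (9.04 and 10.7), and on microgravity 1 and static 3 (14.6 and 14.8). The fit left this shared arrangement, described below, in the spread. Lef1, its DNA-binding partner, had 1.34, 1.29 and 2.09 in simulated microgravity against 1.79, 1.31 and 1.22 in static cells, with a log2 change of 0.11 (95% interval -0.52 to 0.75, limma adjusted p = 0.960). Tcf7l2, a second partner, was dimmer, with 0.236, 0.246 and 0.103 against 0.128, 0.258 and 0.238 (log2 change -0.13, 95% interval -1.14 to 0.87, limma adjusted p = 0.974). Tcf7l1, often a repressor in the absence of beta-catenin, averaged 0.281 ± 0.0711 in simulated microgravity and 0.297 ± 0.0753 in static cells (SD, n = 3 each).

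Of the 7 relay and destruction complex genes 0 passed the threshold, and none of their groups were separate. Axin1, the scaffold of the complex, had 2.40, 2.81 and 1.33 in simulated microgravity against 0.992, 2.46 and 1.84 in static cells (log2 change 0.33, SE 0.42, limma adjusted p = 0.891). Gsk3b, the kinase that marks beta-catenin for degradation, had 2.69, 4.54 and 3.40 against 2.55, 3.79 and 2.35 (log2 change 0.29, SE 0.27, limma adjusted p = 0.857). Axin2, both a scaffold and a widely used target gene of the pathway, had 0.0314, 0.156 and 0.0701 in simulated microgravity against 0.0435, 0.108 and 0.0367 in static cells. It was above the floor on both arrays numbered 2 alone, so its change could not be read from these values. Apc, which binds beta-catenin in the complex, had 3.11, 3.44 and 1.98 in simulated microgravity against 1.98, 2.87 and 3.26 in static cells. Dvl1 had 2.12, 2.27 and 1.17 against 0.883, 2.70 and 1.59, while Dvl2 averaged 0.577 ± 0.195 and 0.726 ± 0.245 and Dvl3 0.208 ± 0.0214 and 0.243 ± 0.0197 (SD, n = 3 each). The lowest array of Axin1, Apc and Dvl1 was microgravity 3 in simulated microgravity and static 1 in static cells.

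That arrangement recurred across the members. Of 40 members with a value on every array, 15 were lowest on both microgravity 3 and static 1 within their groups and 9 were highest on both. The lowest on both were 37.5% of the members, against 19.7% of 9944 probes, and the highest on both were 22.5%, near the 23.3% of the probes. The lowest on both included Ctnnb1, Apc, Axin1, Dvl1, Dkk2, Porcn, Fzd8 and Sfrp2, and the highest on both included Lef1, Frzb, Wnt1, Wnt3 and Wnt11. Deviations of microgravity 3 and static 1 from their group means correlated at 0.90 across the 42 members and at 0.66 across 10128 probes. Those of microgravity 2 and static 2 correlated at 0.61 across members and 0.45 across probes, and those of microgravity 1 and static 3 at 0.61 and 0.38, so the arrays fell into 3 such combinations across the groups. Genes are not independent replicates, and the 3 deviations of a group sum to 0, so these correlations describe the arrays and carry no test. What sets these arrays apart is not given in the labels. Without static 1 and microgravity 3 together, a setting chosen after seeing the data, the log2 change of Sfrp2 was -1.295 (limma adjusted p = 0.386, with 2 arrays a group).

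**Figure D3:**
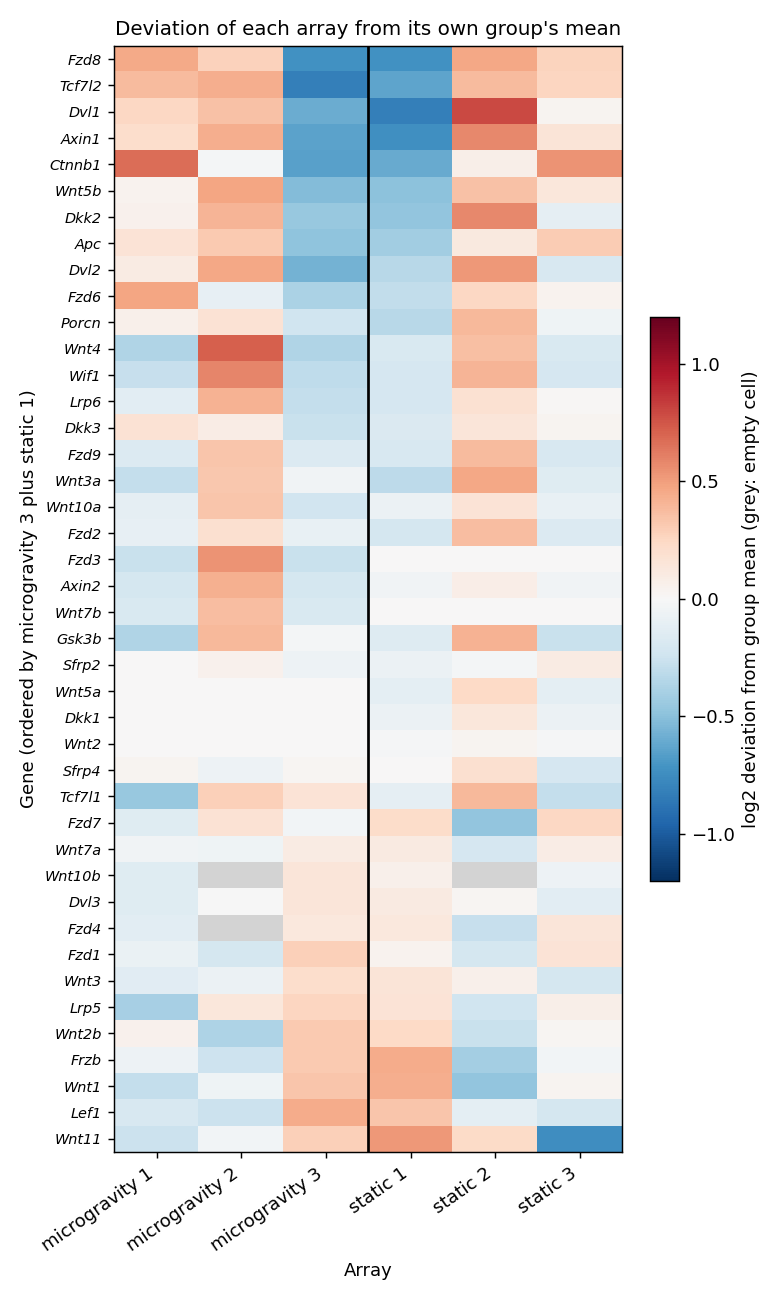
Log2 deviation of each array from the mean of its own group for the 42 tested genes, with simulated microgravity arrays left of static arrays, red above and blue below the group mean, and grey for an empty entry. Genes run from those low to those high on microgravity 3 and static 1, and Ctnnb1, Axin1 and Dvl1 stand at the low end while Wnt11 and Lef1 stand at the high end.

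As a group the members centred near 0. Their median log2 change was -0.07, with 25 lower and 17 higher in simulated microgravity (59.5% lower), against a median of 0.05 over all probes, of which 43.0% were lower. The members' median took the opposite sign, 0.04, when the dimmest 50% of probes were left out, which left 14 of them.

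Other genes of the pathway and genes reported to respond to it were read from 2 further lists, which share members with each other. Of 102 listed pathway genes (Wnt secretion, R-spondin receptors, inhibitors, kinases, coactivators and the planar polarity and calcium branches) 64 were on the array and 63 were tested. By limma 0 rose, 0 fell and 63 did not pass, with 1 lower and 2 higher at an unadjusted p under 0.05, which is 4.76% of them, against 10.8% of all probes. The median log2 change was 0.05, with 26 lower and 37 higher. The largest log2 change, 1.47 (SE 0.78, limma adjusted p = 0.622), was that of Celsr1, a cadherin of planar polarity, named after its values were seen. Celsr1 had 0.349, 2.42 and 0.480 in simulated microgravity against 0.451, 0.142 and 0.297 in static cells, so microgravity 2 stood far above the other arrays and the groups overlapped. The examples set by rule follow. Nfatc4, a calcium-responsive factor of the NFAT family, averaged 4.34 ± 0.802 in simulated microgravity and 6.91 ± 1.09 in static cells (log2 change -0.68, limma adjusted p = 0.260). Dact1, which binds Dishevelled, averaged 1.81 ± 0.2998 and 2.48 ± 0.319, and Nkd1, a Dishevelled-binding inhibitor, 0.679 ± 0.195 and 1.02 ± 0.186. Ruvbl2 and Ruvbl1, ATPases that bind beta-catenin and also serve chromatin remodelling, averaged 12.9 ± 1.76 and 2.91 ± 0.298 in simulated microgravity, against 8.94 ± 1.25 and 2.16 ± 0.353 in static cells. Csnk2a1, a casein kinase subunit, averaged 1.49 ± 0.304 in simulated microgravity and 1.06 ± 0.199 in static cells.

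Reported targets of beta-catenin and Tcf/Lef, of which 40 of 58 were tested, had values in both directions, and 0 passed the threshold. By limma 0 rose and 0 fell, with 4 lower and 5 higher at an unadjusted p under 0.05, together 22.5% of the list, against 10.8% of all probes. The list was chosen with earlier results of these data known, so this share is no independent evidence. The median log2 change was -0.10, with 21 lower and 19 higher. Fosl1, an AP-1 transcription factor gene, had 2.38, 2.38 and 3.02 in simulated microgravity against 1.09, 1.12 and 1.13 in static cells (log2 change 1.21, SE 0.18, limma adjusted p = 0.0669). The groups of Fosl1 lay well apart. Plaur, the urokinase receptor gene, averaged 2.42 ± 0.971 and 1.02 ± 0.0748, and Myc, the growth-promoting transcription factor gene, 20.1 ± 2.27 and 13.4 ± 1.33 (SD, n = 3 each). The examples with lower values were Postn, Ccn5 and Fst. Postn, which encodes the matrix protein periostin, had 36.5, 45.6 and 35.3 in simulated microgravity against 67.6, 78.8 and 80.5 in static cells (log2 change -0.96, SE 0.17, limma adjusted p = 0.0930). Ccn5, a matricellular protein gene first described as Wnt-induced, averaged 13.2 ± 2.12 and 23.7 ± 5.22, and Fst, an inhibitor of activins, 6.19 ± 0.956 and 11.0 ± 2.57. These targets also respond to other pathways, and Postn is an osteoblast marker of the list above.

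**Figure D4:**
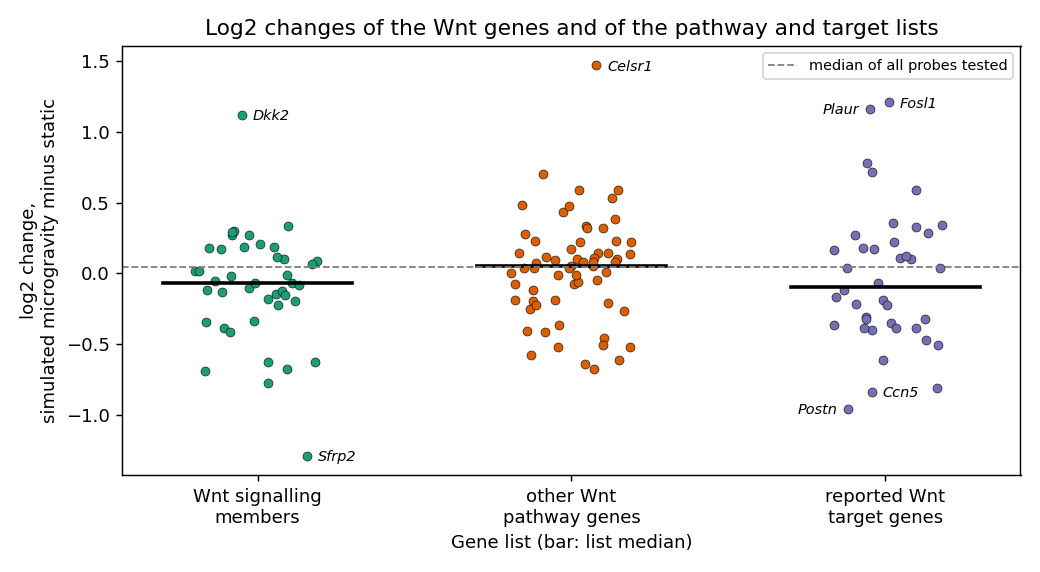
Log2 change (simulated microgravity minus static) of the 42 tested Wnt genes, 63 other pathway genes and 40 reported target genes, 1 point per gene with horizontal jitter, a bar at each list's median and a dashed line at the median of all probes tested. The 3 medians of -0.07, 0.05 and -0.10 lie near that of all probes (0.05), with Sfrp2, Dkk2, Celsr1, Fosl1, Plaur, Postn and Ccn5 among the outlying points.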

How the data were processed

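The authors deposited 1 table of linear intensity values for 10500 probes on 6 arrays, and the sources used here do not say how it was scaled. Intensities were expressed relative to their array's median, raised to a floor of 0.1 where lower, and converted to log2, which understates changes of dim genes. The fit left out 354 probes, which were at this floor on all arrays (290) or lacked 2 values in a group. Groups were compared with limma 3.58.1 in R 4.3.3 (lmFit, then eBayes with an intensity trend, 2-sided), and p-values were adjusted by Benjamini-Hochberg over all 10146 probes, with calls at 0.05. The number of arrays, 3 a group, limits the precision.

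Genes were named through GEO's platform annotation, and 0 of the 44 symbols differed from an NCBI gene table of build GRCm38.p6, whose RefSeq promoters were used. The members, lists and tests were chosen with earlier results of these data known. By rule, values on every array were given for members past the threshold or at an unadjusted p under 0.05, the 2 with the smallest p in each role among those above the array median, and 7 core components (Ctnnb1, Gsk3b, Lrp5, Lrp6, Axin2, Lef1, Tcf7l2). From the 2 further lists, the rule took called genes and the 3 with the smallest p in each direction above the array median. Other genes named with values were chosen after their values were seen. Probe agreement could not be examined, since each member had 1 probe, and protein sequences were not analysed here. The 21 alternatives covered normalization, floor, dim probes, array weights, variance model, a replicate block and arrays left out.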

Additional observations from a re-analysis of the deposited data

How the results depend on the processing

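Of 21 alternatives, averaging the probes of a gene could not alter the members' values, since each has 1 probe. Under the other 20 Sfrp2 stayed lower in simulated microgravity (log2 change -1.34 to -1.24) and passed the threshold in 11, where it was again the only member called. It did not pass, with 0 members and 0 probes called by limma, with the replicate block (log2 change -1.29, adjusted p = 0.245), without both arrays numbered 2 (-1.33, adjusted p = 0.204), without static 1 and microgravity 3 together (-1.295, adjusted p = 0.386), or with any 1 array left out (-1.33 to -1.24, members and probes 0 to 0). These settings use fewer arrays or, under the block, leave fewer residual degrees of freedom. At an unadjusted p under 0.05 they had 719 to 968 probes. The labels do not say whether arrays of equal number belong together, and the main fit did not take them as pairs. Deviations from group means correlated at -0.21, 0.45 and -0.18 for numbers 1, 2 and 3. These correlations carry no test and cannot settle the pairing. If equal numbers were pairs, the replicate block would be the fit that applies, and Sfrp2 did not pass in it.

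The 28 probes called became 54 with quantile and 57 with cyclic loess normalization, 53 with the floor at 0.05 of the median, 59 with no floor, 56 and 55 with the dimmest 25% and 50% of probes left out, and 115 with array weights. They were 36 and 40 with the floor at 0.5 and 0.2 of the median, 29 with robust and 19 with untrended variance moderation. Target list calls went to 1 (Fosl1) with cyclic loess normalization, with the floor at 0.05, with no floor and with the dimmest 25% or 50% left out, and to 2 (Fosl1 and Postn) with array weights. The cause was not tested. Pathway list calls were 0 throughout, and the members' median was -0.16 to 0.04.

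Over these 20 alternatives 16 of the 42 tested members kept 1 sign wherever they were fitted, and 26 turned in at least 1. Some of the members that kept their sign were not fitted in every alternative. Among them, Wnt10b and Wnt7b were fitted in 15 alternatives, averaging of probes included. Wnt7b was also at or under the floor on 5 of 6 arrays. Of 298 values of the 16 named members, 284 kept their sign, but many of these could not turn. The variance moderation settings and the replicate block left the log2 changes of these members as they were. Other floors and leaving out dim probes did the same for bright members such as Sfrp2 (-1.29) and Dkk2 (1.12). The 284 is therefore no measure of stability. Lrp5 was negative with array weights (-0.19), without both arrays numbered 2 (-0.17) and without static 1 and microgravity 3 together (-0.032). With 1 array left out, signs turned for Lrp5 (-0.12 to 0.21), Ctnnb1 (-0.49 to 0.18), Tcf7l2 (-0.45 to 0.28), Axin1 (-0.035 to 0.66), Axin2 (-0.038 to 0.28), Lef1 (-0.11 to 0.28) and Lrp6 (-0.33 to 0.021).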
